A study of Mus musculus with 6 samples.

Results

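The genes described here are those of the ATF4 branch of the integrated stress response and of cellular amino acid supply. They were chosen by name: 41 symbols in 3 classes, namely 13 regulators and stress effectors, 10 enzymes that make amino acids or 1-carbon units, and 18 amino acid transporters. Each was read from its probe set with 1 gene symbol and the highest mean over the 6 arrays, which gave 39 measured genes out of 19938 in all: 12 regulators, 9 synthesis enzymes and 18 transporters. Vldlr2 matched no symbol of the probe annotation and Pycr1 had no probe set with 1 symbol, so neither was analysed here.

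RNA came from bone marrow stromal cells of C57BL/6 mice aged 6 months, and the labels name 2 genotypes: 188KO, lacking miR-188 by its name (KO, 3 arrays), and wild type (WT, 3 arrays). Cells of both genotypes were grown in adipogenesis medium, renewed every other day, whose serum was 10% fetal calf. Its inducers were dexamethasone at 1 µM, insulin at 5 µg/ml and the phosphodiesterase inhibitor 3-isobutyl-1-methylxanthine at 0.5 mM. The replicates are labelled biological, with no word on separate mice, so p-values cover only the spread among the 3 cultures of a genotype. The labels give neither the extent of the deletion nor the cells in which it was made. Each culture is a mixture in which fewer cells of a type and less RNA per cell cannot be told apart.

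The microRNA that the KO label names is made from a hairpin on mouse chromosome X, and its mature arms are shown here because they define the genotype, in the RefSeq sequence of GRCm38.p6 with the seed (bases 2 to 8) in capitals.
mmu-miR-188-5p: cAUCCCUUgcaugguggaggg
mmu-miR-188-3p: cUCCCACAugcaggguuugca
The 5p arm lies at chrX:7248031-7248051 and the 3p arm at chrX:7247992-7248012, both on the minus strand. The Mir188 probe set read 7.22, 7.22 and 7.13 in KO, against 7.22, 7.27 and 7.38 in WT, on the log2 scale of the table. These ranges touch, and the difference of -0.10 did not pass the test (limma adjusted p = 0.348), so the KO label is used here without a check from this probe set.

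The integrated stress response is the programme by which cells slow translation when amino acids, protein folding in the endoplasmic reticulum or haem supply fail. Dedicated kinases phosphorylate the initiation factor eIF2, which lowers general translation and raises that of ATF4, a bZIP transcription factor. ATF4 then induces genes that make amino acids and bring them into the cell. Differentiating stromal cells draw on this supply for matrix proteins, and collagen takes up much glycine and proline.

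Stromal identity was checked against marker lists. Of 15 measured stromal markers 13 lay above background, a level of 6.83 set as the 95th percentile of 1027 olfactory receptor genes, and the array means of the list were 9.07 to 9.11 in KO and 9.13 to 9.15 in WT. Of 11 adipocyte markers 9 lay above background, with Adipoq and Lep below it, and the array means were 7.87 to 7.92 in KO and up to 8.06 in WT. Both array means were lower on every KO array, but neither list moved as a whole. Of the stromal markers 3 were called higher (20%) and 6 lower (40%), with a median difference of -0.01, beside 3.34% and 3.97% of all genes. Pdgfra, Pdgfrb and Dcn were the 3 higher. The 6 lower were Kitl, Nt5e, Cd44, Col1a1 (-0.28), Col1a2 (-0.30) and Col3a1 (-0.35). Of the adipocyte markers Pparg (-1.27) and Fabp4 (-0.33) were called lower and Lipe (0.19) higher, and 6 of the 11 differences were positive, with a median of 0.002. The part of these markers in the differences given here was not tested. Pparg, the master regulator of adipocyte differentiation, read 7.84, 7.72 and 8.02 in KO, against 9.08, 9.21 and 9.08 in WT. Of 12 macrophage markers 4 lay above background, with array means of 6.74 to 6.78 in KO and 6.68 to 6.78 in WT. The lists for endothelial and erythroid cells, osteoclasts, neutrophils and lymphocytes had array means that overlapped between the genotypes. Single markers were still called: the macrophage marker Cd68 (-0.19) and the endothelial marker Kdr (-0.29) lower, and the osteoclast markers Ctsk and Mmp9 (0.16 each) higher.

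Of the 39 measured genes, 8 passed the test between KO and WT: Sesn2 rose in KO, while Ppp1r15a, Psat1, Psph, Aldh18a1, Slc7a6, Slc38a2 and Slc38a9 fell. A gene passed at an adjusted p under 0.05 in limma's linear model, with Benjamini-Hochberg adjustment over all 19938 genes. By this rule 7.31% of all genes were called, 3.34% higher and 3.97% lower, and of the 39 genes 1 (2.56%) was called higher and 7 (17.9%) lower. Among the 13090 genes above background, which include 36 of the 39, the shares were 4.75% higher and 5.91% lower. The 3 KO values lay wholly below the 3 WT values for 14 of the 39 genes and wholly above them for 6. In all genes these shares were 13.5% below and 11.4% above, and among genes above background 19.3% below and 15% above. All changes were small: the called genes differed by 1.12-fold to 1.27-fold.

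**Figure D1:**
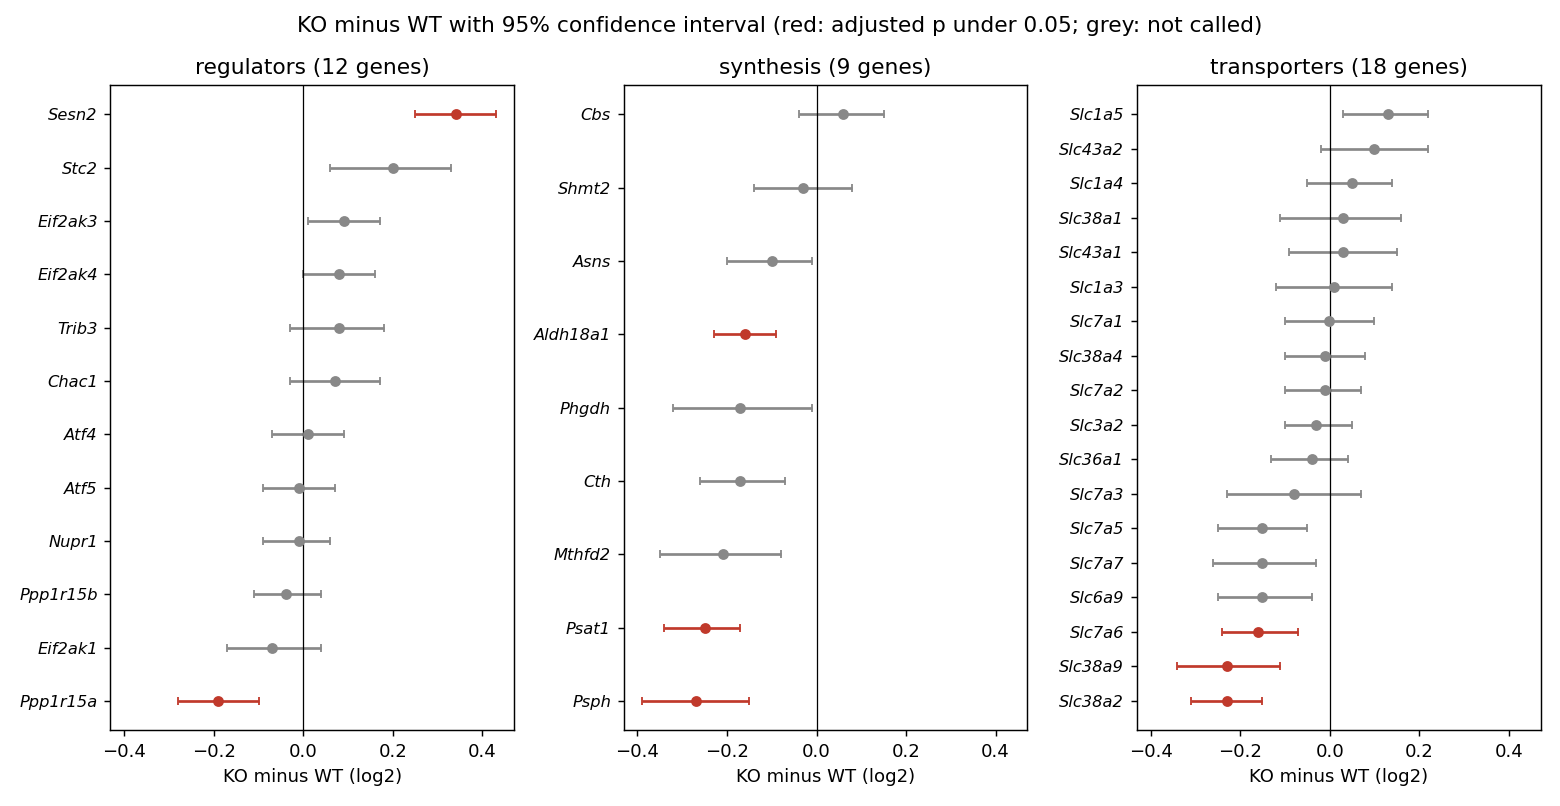
Difference between KO and WT on the log2 scale for the 39 measured genes, by class, with the 95% confidence interval of limma's moderated test (horizontal bars, 3 arrays per genotype) and genes that passed the test in red. Among the 9 synthesis enzymes 8 lie left of 0, the regulators spread around 0 between -0.19 and 0.34, and the transporters lie between -0.23 and 0.13.

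The transcripts of the transcription factors did not differ measurably between the genotypes. Atf4 read 10.05, 10.01 and 10.02 in KO, against 10.05, 10.00 and 9.99 in WT. Its difference was 0.01 with a 95% interval of -0.07 to 0.09 (limma adjusted p = 0.867). Atf5, a related factor induced under the same stress, read 8.59, 8.62 and 8.64 in KO, against 8.61, 8.60 and 8.66 in WT. The groups overlapped for both genes, and the interval for Atf5 was -0.09 to 0.07 (limma adjusted p = 0.923). ATF4 is controlled largely at the level of translation, and the arrays measure transcripts alone.

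None of the 3 eIF2 kinases among the named genes passed in the fit with equal array weights. Another eIF2 kinase, Eif2ak2, was counted with the related genes and did not pass either (difference 0.15, overlapping groups, limma adjusted p = 0.304). Eif2ak3 encodes PERK, the kinase that senses unfolded protein in the endoplasmic reticulum, and read 8.35, 8.37 and 8.42 in KO, against 8.29, 8.31 and 8.28 in WT. All KO values lay above all WT values, yet the difference of 0.09 did not pass (limma adjusted p = 0.195). Eif2ak3 was called higher under array weights (0.11, adjusted p = 0.0358), which called 8.04% of all genes higher, and its alternatives ranged up to 0.444. That fit weighted WT replicate 3 at 7.41 and the other arrays at 0.524 to 1.19. The WT level of every array-weight call given here thus rests largely on 1 array. Eif2ak4 encodes GCN2, which binds uncharged tRNA, and read 8.52, 8.55 and 8.53 in KO, against 8.49, 8.43 and 8.43 in WT. Here too the groups did not overlap and the difference of 0.08 did not pass (limma adjusted p = 0.252). Eif2ak1, the haem-regulated kinase, differed by -0.07 with overlapping groups (limma adjusted p = 0.464).

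The phosphatase arm that reverses eIF2 phosphorylation was lower in its inducible subunit. Ppp1r15a encodes GADD34, which brings protein phosphatase 1 to eIF2 after stress. It read 9.32, 9.43 and 9.37 in KO, against 9.57, 9.54 and 9.57 in WT. Every KO array lay below every WT array, and the gene fell by 0.19 (SE 0.04, limma adjusted p = 0.0362). Of the fits that left out 1 array, that without KO replicate 2 kept the call (adjusted p = 0.0409) and the others did not (up to 0.151). The constitutive partner Ppp1r15b differed by -0.04 (limma adjusted p = 0.594), and its second probe set by 0.02.

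Sesn2 was the only one of the 39 genes that rose. It encodes sestrin 2, a stress-induced protein that binds leucine and holds back mTORC1 through the GATOR2 complex. Its level was 9.34, 9.26 and 9.36 in KO, against 8.98, 8.98 and 8.97 in WT. The lowest KO array thus stood clear of the highest WT array, and the rise was 0.34 (SE 0.04, 1.27-fold, limma adjusted p = 0.00536). Of the 8 calls it was the only one that held without each of the 6 arrays in turn, with adjusted p between 0.0189 and 0.0498.

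The other stress effectors did not pass. Trib3, a pseudokinase that feeds back on ATF4, read 8.82, 8.71 and 8.71 in KO, against 8.70, 8.69 and 8.63 in WT, a difference of 0.08 (limma adjusted p = 0.387). Chac1, which degrades glutathione, read 10.05, 9.95 and 10.04 in KO, against 9.98, 9.91 and 9.94 in WT, a difference of 0.07 (limma adjusted p = 0.453). The KO values of Trib3 lay just above those of WT and those of Chac1 overlapped them. Stc2, a secreted glycoprotein induced by stress, averaged 7.90 ± 0.00 in KO and 7.70 ± 0.11 in WT (SD, n = 3 arrays each). Its KO arrays gave nearly one value, all above the WT arrays, and the difference of 0.20 did not pass (limma adjusted p = 0.102). Stc2 too was called higher under array weights (0.18, adjusted p = 0.0275), and its alternatives ranged up to 0.254. Nupr1, a small stress-induced chromatin protein, differed by -0.01 (limma adjusted p = 0.865). Over the 12 regulators the median difference was 0.04, beside 0.0046 over all genes. Of these 12, 1 was called higher and 1 lower (8.33% each), beside 3.34% and 3.97% of all genes, and 10 did not pass.

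**Figure D2:**
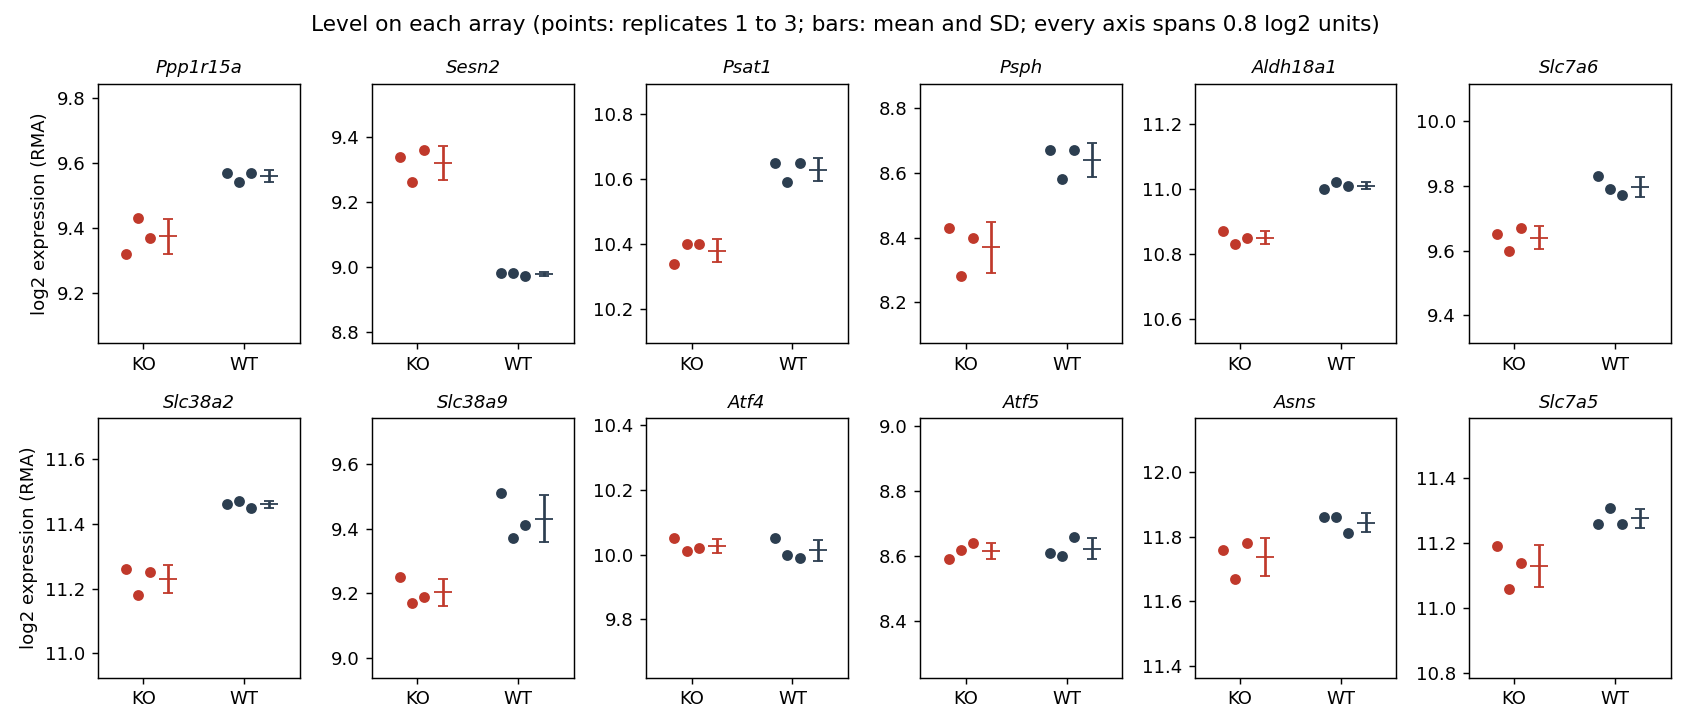
Level on each array (log2 expression, RMA) of the 8 genes that passed the test and of Atf4, Atf5, Asns and Slc7a5, with KO in red and WT in dark blue, points for the 3 replicates, and bars for mean and SD. The KO and WT points separate for the 8 called genes, with Sesn2 alone higher in KO, and they overlap for Atf4 and Atf5.

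Of the 9 synthesis enzymes 3 fell in KO (33.3%), 6 did not pass and none rose. The median difference was -0.17, 8 of the 9 differences were negative, and in 6 genes the KO arrays lay wholly below the WT arrays. Over all genes 3.97% were called lower, 47.7% of differences were negative and the median was 0.0046. Among genes above background, which include all 9 enzymes, 5.91% were called lower and 19.3% had KO arrays wholly below WT arrays.

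The serine pathway makes serine from a glycolytic intermediate in successive steps catalysed by the products of Phgdh, Psat1 and Psph. Phgdh, the entry enzyme, read 10.11, 10.26 and 10.11 in KO, against 10.44, 10.25 and 10.30 in WT. KO replicate 2 lay above WT replicate 2, and the difference of -0.17 did not pass (limma adjusted p = 0.209). Psat1, the aminotransferase of the middle step, read 10.34, 10.40 and 10.40 in KO, against 10.65, 10.59 and 10.65 in WT. The groups were well apart, and Psat1 fell by 0.25 (SE 0.04, 1.19-fold, limma adjusted p = 0.011). Psph, the phosphatase that releases serine, read 8.43, 8.28 and 8.40 in KO, against 8.67, 8.58 and 8.67 in WT. It had the largest fall of the 39 genes, 0.27 (SE 0.05, 1.21-fold, limma adjusted p = 0.0267). Psat1 missed the threshold without WT replicate 1 or WT replicate 3 (adjusted p up to 0.0714), and Psph passed only without WT replicate 2 (adjusted p = 0.0467, otherwise up to 0.128).

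Among the synthesis enzymes, Mthfd2 and Shmt2 handle in mitochondria the carbon that serine donates, and neither passed. Of the mitochondrial 1-carbon enzymes in the related lists below, Aldh1l2 was called lower (difference -0.15, limma adjusted p = 0.0385). This call was lost without any 1 array (adjusted p = 0.0599 to 0.143). Mthfd1l (0.16, limma adjusted p = 0.0717) and Mthfd2l (-0.22, limma adjusted p = 0.101) did not pass. Mthfd2, the mitochondrial methylenetetrahydrofolate dehydrogenase, read 9.23, 9.12 and 9.33 in KO, against 9.46, 9.41 and 9.45 in WT. The groups did not overlap, and the difference of -0.21 had an adjusted p of 0.0735 in limma. Testing only genes above background, which called 9.37% of them lower, gave Mthfd2 an adjusted p of 0.0351. Array weights, which called 9.1% of all genes lower, gave 0.0283, and the alternatives together ranged up to 0.241. Shmt2, the mitochondrial serine hydroxymethyltransferase, differed by -0.03 with overlapping groups (limma adjusted p = 0.782).

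Asparagine synthetase, the product of the classic ATF4 target Asns, did not pass. Asns read 11.76, 11.67 and 11.78 in KO, against 11.86, 11.86 and 11.81 in WT. The KO arrays lay below the WT arrays by a small margin, and the difference of -0.10 had a 95% interval of -0.20 to -0.01 (limma adjusted p = 0.21). Of the proline branch, Aldh18a1, which makes the first committed intermediate from glutamate, read 10.87, 10.83 and 10.85 in KO, against 11.00, 11.02 and 11.01 in WT. Its arrays were tight and separate, with a fall of 0.16 (SE 0.03, limma adjusted p = 0.0273). This call was lost without any 1 of the 6 arrays (adjusted p = 0.0511 to 0.121), after quantile normalization again (adjusted p = 0.12) and after cyclic loess (adjusted p = 0.0828). The transsulfuration pathway turns homocysteine into cysteine through the products of Cbs and Cth. Cth averaged 9.22 ± 0.05 in KO and 9.39 ± 0.04 in WT, and Cbs 7.88 ± 0.05 in KO and 7.82 ± 0.04 in WT (SD, n = 3 arrays each). Cth narrowly missed the threshold with a difference of -0.17 (limma adjusted p = 0.0525), and it was called lower when only genes above background were tested (adjusted p = 0.0237, the lowest of its alternatives, which ranged up to 0.183). Array weights gave 0.0244. Cbs was the only enzyme of the 9 with a positive difference, 0.06 (limma adjusted p = 0.502).

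Among the 18 transporters 3 fell (16.7%), 15 did not pass and none rose, and the median difference was -0.02. Beside this, 3.97% of all genes were called lower, and 5.91% of those above background, which include 15 of the 18. Slc38a2 encodes SNAT2, a sodium-coupled carrier of small neutral amino acids that starvation induces. It read 11.26, 11.18 and 11.25 in KO, against 11.46, 11.47 and 11.45 in WT. The WT arrays spanned 11.45 to 11.47, all KO arrays lay below them, and the fall was 0.23 (SE 0.03, 1.17-fold, limma adjusted p = 0.013). It missed the threshold without WT replicate 1 or WT replicate 3 (adjusted p up to 0.073).

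Slc38a9, a lysosomal carrier that signals arginine to mTORC1, read 9.25, 9.17 and 9.19 in KO, against 9.51, 9.37 and 9.41 in WT. The groups did not overlap and the fall was 0.23 (SE 0.05, limma adjusted p = 0.0372). A second, dimmer probe set of Slc38a9 differed by -0.07, and the mean of both probe sets did not pass (difference -0.15, adjusted p = 0.0858). Slc7a6, which exchanges cationic for neutral amino acids together with SLC3A2, read 9.65, 9.60 and 9.67 in KO, against 9.83, 9.79 and 9.77 in WT, a fall of 0.16 (SE 0.04, limma adjusted p = 0.0481). It had the adjusted p nearest to the threshold of the 8 calls, and both genes missed it without any 1 of the 6 arrays (adjusted p = 0.0544 to 0.127 for Slc38a9 and 0.091 to 0.129 for Slc7a6). Slc7a6 also missed it after quantile normalization again (adjusted p = 0.0698) and after cyclic loess (adjusted p = 0.0686).

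The large neutral amino acid exchanger is built from SLC7A5, the light chain that carries leucine, and SLC3A2, the shared heavy chain. Slc7a5 read 11.19, 11.06 and 11.14 in KO, against 11.26, 11.31 and 11.26 in WT. The groups did not overlap, and the difference of -0.15 did not pass (limma adjusted p = 0.0984). Slc7a5 was called lower under array weights (adjusted p = 0.0317) and when only genes above background were tested (adjusted p = 0.0489), and its alternatives ranged up to 0.311. Slc3a2 read 13.23, 13.20 and 13.22 in KO, against 13.25, 13.25 and 13.21 in WT, with overlapping groups and a difference of -0.03 (limma adjusted p = 0.704). That difference was 0.02 after cyclic loess.

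Slc7a1, the housekeeping carrier of arginine and lysine, read 9.50, 9.38 and 9.41 in KO, against 9.42, 9.44 and 9.43 in WT. The KO arrays lay on both sides of the WT arrays, with a difference of -0.0012 and a 95% interval of -0.10 to 0.10 (limma adjusted p = 0.993). Slc7a2, another cationic carrier, differed by -0.01 and Slc7a7, which exports cationic amino acids, by -0.15 (limma adjusted p = 0.876 and 0.137). Slc1a5, the glutamine carrier ASCT2, averaged 9.97 ± 0.05 in KO and 9.85 ± 0.02 in WT (SD, n = 3 arrays each). Its 0.13 was the largest positive difference among the transporters, and its KO arrays lay above all WT arrays (limma adjusted p = 0.115). Slc1a5 was called higher under array weights (adjusted p = 0.0396) and after cyclic loess over all probe sets (adjusted p = 0.0482), which called 4.31% of all genes higher. Its alternatives ranged up to 0.258. The related carrier Slc1a4 differed by 0.05 (limma adjusted p = 0.602).

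The remaining transporters gave no call. The glycine carrier Slc6a9 differed by -0.15 with separate groups (limma adjusted p = 0.114). Slc36a1, a proton-coupled carrier of small amino acids, differed by -0.04, the glutamine carrier Slc38a1 by 0.03, and the carriers of large neutral amino acids Slc43a1 and Slc43a2 by 0.03 and 0.10 (limma adjusted p = 0.314 to 0.853). Slc1a3, Slc7a3 and Slc38a4 lay below background in mean level, so their differences of 0.01, -0.08 and -0.01 say little about these carriers.

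The ATF4 response is known to act through a composite site for ATF4 and C/EBP factors, and promoter windows of the named genes were searched for it. The windows come from RefSeq on GRCm38.p6 and span 250 bases before to 50 after each gene start, and 33 of the 41 symbols had at least 1. Of 6 patterns looked at, 2 are described. The pattern TGATGNAA on either strand occurred in 3.97% of all 32851 windows. In 8 of 47 windows of the named genes it was found (17%), belonging to 7 genes, of which Pycr1 was not measured. The genes had been chosen for the ATF4 branch and amino acid supply, with ATF4 targets among them, and the pattern was kept after its matches were seen. The share is therefore a description and not a test. The 6 measured genes are shown by 30 bases of the gene's sense strand with the match in capitals, since their windows hold the pattern. Whether any match is a working site was not tested.
Asns: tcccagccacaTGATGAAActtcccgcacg
Chac1: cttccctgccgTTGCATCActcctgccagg
Nupr1: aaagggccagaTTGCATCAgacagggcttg
Trib3: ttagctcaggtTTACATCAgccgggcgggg
Slc1a4: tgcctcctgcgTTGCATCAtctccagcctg
Slc7a7: ccgcttgggctTGATGAAAggttcactggg
These runs lie at chr6:7693214-7693243, chr2:119351038-119351067, chr7:126625562-126625591, chr2:152344028-152344057, chr11:20332699-20332728 and chr14:54418067-54418096 in the order shown, with Chac1 on the plus strand and the others on the minus strand. None of these 6 genes passed the test, and their KO minus WT differences lay between -0.15 for Slc7a7 and 0.08 for Trib3. Slc7a7 held a second match in the same window, and its 1 other matching window overlaps that one and holds the same second match.

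All 8 called genes had a window, and none held TGATGNAA. Such an element can lie elsewhere in a gene, as it is known to do in the first intron of Slc38a2, and no match says only that these letters are absent from this stretch. The pattern of the cyclic AMP response element, TGACGTCA, found in 1.79% of all windows, occurred in 1 of the 47, that of Ppp1r15a. The 100 bases before the gene start are shown for Ppp1r15a with that match in capitals, and for Sesn2, Psat1, Psph and Slc38a2, the other called genes with the largest changes.
Ppp1r15a: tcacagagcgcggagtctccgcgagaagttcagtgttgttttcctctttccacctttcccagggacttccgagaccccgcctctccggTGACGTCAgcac
Sesn2: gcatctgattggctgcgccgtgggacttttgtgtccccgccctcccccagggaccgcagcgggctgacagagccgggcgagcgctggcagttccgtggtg
Psat1: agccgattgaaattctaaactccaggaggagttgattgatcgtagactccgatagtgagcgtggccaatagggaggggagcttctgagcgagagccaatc
Psph: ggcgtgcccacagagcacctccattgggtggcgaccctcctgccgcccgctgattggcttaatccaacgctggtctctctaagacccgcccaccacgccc
Slc38a2: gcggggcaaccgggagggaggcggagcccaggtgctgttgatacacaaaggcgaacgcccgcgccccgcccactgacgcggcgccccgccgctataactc
They lie at chr7:45526269-45526368, chr4:132510457-132510556, chr19:15925060-15925159, chr5:129787254-129787353 and chr15:96699729-96699828, all on the minus strand, and the stretch for Psat1 belongs to the first of 2 starts.

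Calls among other genes of the same pathways went in both directions. By the same rule 3.34% of all genes were called higher and 3.97% lower, and among genes above background 4.75% and 5.91%. No list was tested against these shares, and in lists this small each percentage rests on a few calls. Of 21 further integrated stress response genes 2 rose (9.52%), 19 did not pass and none fell, and the median difference was 0.03. Cebpb, a C/EBP factor of early adipogenesis that also pairs with ATF4, read 10.46, 10.41 and 10.47 in KO, against 10.29, 10.28 and 10.23 in WT. Its groups were separate, with a rise of 0.18 (limma adjusted p = 0.0269). Ddit3, which encodes the stress factor CHOP downstream of ATF4, rose by 0.15 (limma adjusted p = 0.0418), a call lost without any 1 array (adjusted p = 0.081 to 0.123). That of Cebpb was kept only without 1 of the 6 arrays (adjusted p = 0.0458 to 0.123).

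Of 29 further reported ATF4 targets 6 rose (20.7%), 4 fell (13.8%) and 19 did not pass, with a median of 0.04. Ddit4, an inhibitor of mTORC1, read 11.60, 11.58 and 11.60 in KO, against 11.23, 11.23 and 11.23 in WT. It rose by 0.36 (SE 0.03, limma adjusted p = 0.0029), the WT values agreeing to 2 decimals. Ero1a, an oxidase of the endoplasmic reticulum, rose by 0.27 (limma adjusted p = 0.00702). Atg12, an autophagy conjugation protein, fell by 0.30 (limma adjusted p = 0.00927) and the growth arrest gene Gadd45a by 0.28 (limma adjusted p = 0.0102). Without WT replicate 3 Ero1a and Atg12 missed the threshold (adjusted p = 0.0537 and 0.062), and Gadd45a passed in 4 of the 6 fits without 1 array (up to 0.0582).

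Cytosolic aminoacyl-tRNA synthetases, which charge tRNA and include many ATF4 targets, had 1 of 19 lower (5.26%), none higher and 18 not past the test. Mars1, the methionyl-tRNA synthetase, fell by 0.16 (limma adjusted p = 0.0354), a call lost without any 1 array (adjusted p = 0.069 to 0.116). The list median was -0.10, 17 of 19 differences were negative, and in 12 the KO arrays lay wholly below the WT arrays. Among genes above background, 19.3% had KO arrays wholly below WT arrays.

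Of 27 other enzymes of amino acid and 1-carbon metabolism 2 rose (7.41%), 1 fell (3.7%) and 24 did not pass, with a median of -0.03. Glud1, mitochondrial glutamate dehydrogenase, read 9.97, 9.90 and 10.00 in KO, against 10.27, 10.28 and 10.28 in WT. The groups were far apart relative to their spread, and Glud1 fell by 0.32 (SE 0.04, limma adjusted p = 0.00665), passing in 5 of the 6 fits without 1 array (adjusted p up to 0.0537). Arg2, the mitochondrial arginase, rose by 0.25 (limma adjusted p = 0.0258) and pyruvate carboxylase, Pcx, by 0.18 (limma adjusted p = 0.0409). Arg2 passed in 1 of the 6 fits without 1 array and Pcx in none (adjusted p up to 0.124 and 0.168).

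Of 32 other amino acid transporters 3 rose (9.38%), 1 fell (3.12%) and 28 did not pass, with a median of 0.02, beside 3.34% higher and 3.97% lower over all genes. Slc36a2, a proton-coupled carrier of glycine and proline, read 8.32, 8.24 and 8.22 in KO, against 7.73, 7.76 and 7.64 in WT. It rose by 0.55 (SE 0.05, limma adjusted p = 0.00302) and passed without each of the 6 arrays in turn (adjusted p up to 0.0288). Slc43a3, a purine nucleobase carrier by function although it belongs to the family of Slc43a1, rose by 0.24 (limma adjusted p = 0.00823). Slc38a10 fell by 0.27 (limma adjusted p = 0.00793). Each of these 2 passed in 5 of the 6 fits without 1 array (adjusted p up to 0.0596 for Slc43a3 and 0.0574 for Slc38a10).

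Of 26 measured genes that report amino acids to mTORC1, 2 rose (7.69%), 1 fell (3.85%) and 23 did not pass, with a median of 0.02. Castor2, a paralog of the arginine sensor Castor1, read 8.49, 8.53 and 8.60 in KO, against 9.09, 9.06 and 9.07 in WT. It fell by 0.53 (SE 0.04, limma adjusted p = 0.00215), and its second probe set differed by -0.31. Seh1l, a subunit of GATOR2 and of the nuclear pore, rose by 0.37 (limma adjusted p = 0.00629), and Fnip2, a folliculin partner, by 0.25 (limma adjusted p = 0.0178). The calls of Castor2 and Seh1l held without each of the 6 arrays in turn (adjusted p up to 0.0303 and 0.0473), and Fnip2 passed in 2 of these 6 fits (up to 0.0956).

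**Figure D3:**
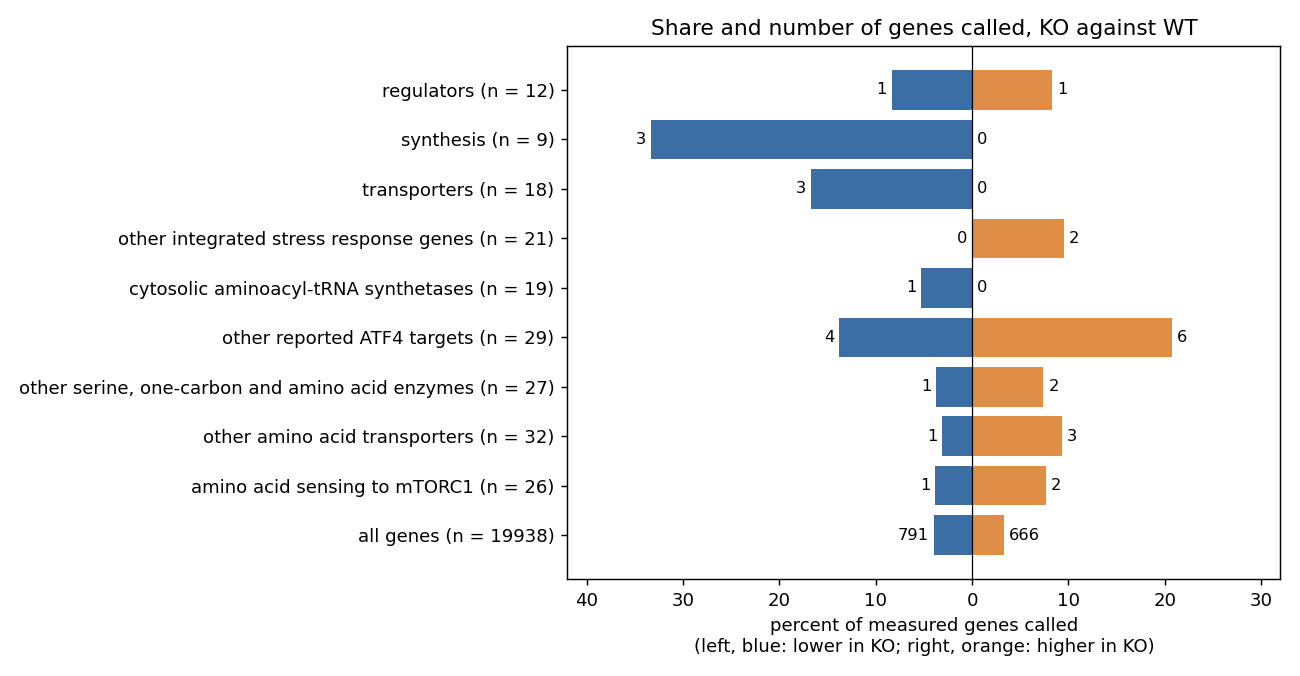
Percent of measured genes called lower (left, blue) and higher (right, orange) in KO than in WT for the 3 classes, for 6 lists of related genes and for all 19938 genes, with the number of called genes beside each bar. The synthesis enzymes have 3 of 9 lower and none higher, and the other reported ATF4 targets have 6 of 29 higher and 4 lower.

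The number of the 39 genes called fell with each array left out, as did the share of all genes called. Without KO replicates 1, 2 and 3 in turn, 3, 4 and 3 of the 39 were called, beside 4.13%, 4.15% and 3.07% of all genes. Without WT replicates 1, 2 and 3 in turn, 1, 4 and 1 were called, beside 2.48%, 4.67% and 0.948% of all genes. Losing WT replicate 1 or WT replicate 3 left Sesn2 as the only call. With the replicate number as a block none of the 39 was called, beside 0.261% of all genes.

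**Figure D4:**
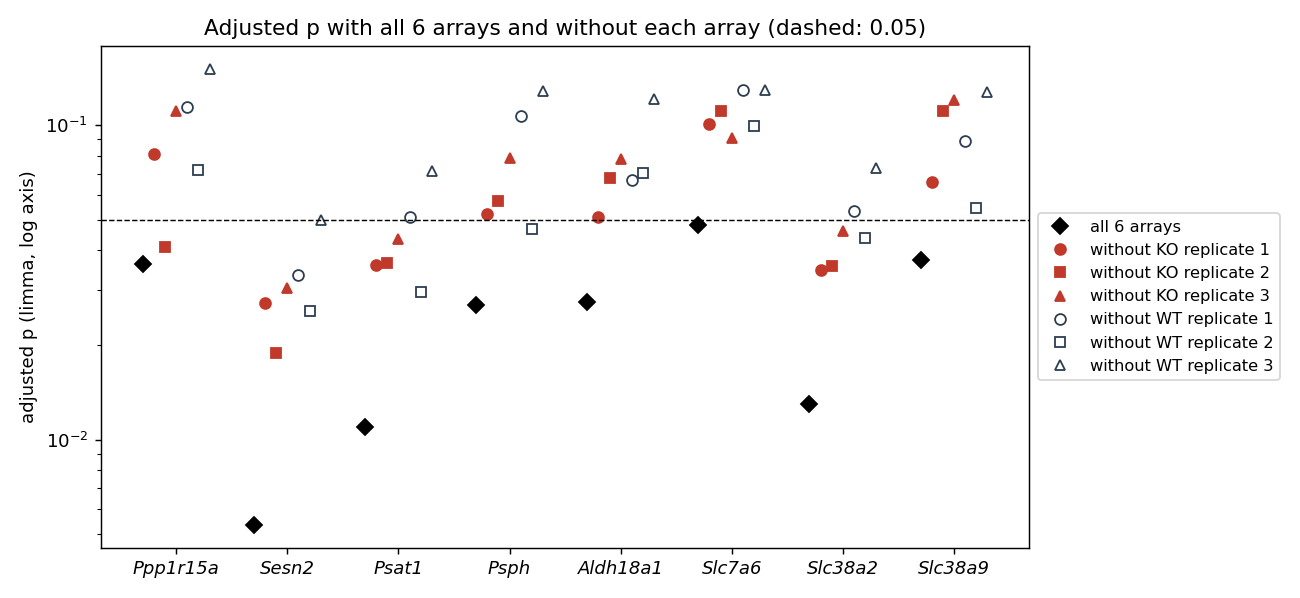
Adjusted p (limma, log axis) of the 8 called genes with all 6 arrays (black diamonds) and without each array in turn (red, without a KO array; open blue, without a WT array), with the threshold dashed. Sesn2 stays below the threshold in all 6 fits, Psat1 and Slc38a2 in 4, and Aldh18a1, Slc7a6 and Slc38a9 in none.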

How the data were processed

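RNA of 6 cultures was hybridised to 1 Affymetrix single-colour array each, per the labels' protocols. The deposited table holds log2 values that the authors made with RMA, per the submitters' processing notes, for 35556 probe sets. Of these 21789 had 1 gene symbol in the platform annotation, and symbols were updated through gene identifiers of the GRCm38.p6 gene table. Each of 19938 genes was taken from its probe set with the highest mean. Array medians of 7.19 to 7.23 were left as deposited, and arrays give no read depth, so their number limits the precision.

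KO was compared with WT by limma 3.58.1 in R 4.3.3 (lmFit, eBayes, two-sided, no covariates, no filter), with Benjamini-Hochberg adjustment over all genes. The procedure was run on simulated data with changes larger than those of most ATF4 and amino acid genes called here. That run does not speak for calls of this size. The genes and lists were chosen with earlier results of these data known, and lists were described by counts and medians without a set test. Values are given by array for called genes and for Atf4, Atf5, Eif2ak3, Eif2ak4, Ppp1r15a, Trib3, Chac1, Asns, Phgdh, Psat1, Mthfd2, Slc7a5, Slc3a2, Slc7a1 and Slc38a2. For related lists the 2 called genes with the smallest p in each direction are named, and Eif2ak2 is added as a further eIF2 kinase. Alternatives were repeated quantile normalization, cyclic loess, genes above background only, array weights, the replicate number as a block, the mean of all probe sets of a gene, and leaving out each array. Renormalization was first run on the gene table alone and then, after those counts had been seen, over all probe sets, and both are reported. The 2 promoter patterns described were kept from 6 looked at, and the choice followed the matches.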

Additional observations from a re-analysis of the deposited data

How the results depend on the processing

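With 3 arrays per genotype, small changes are hard to resolve. Without 1 array the count of called genes lay between 189 and 932, against 1457, that of the 39 genes called lower between 0 and 3, against 7, and that called higher was 1 each time. The count of all called genes was 2192 with only genes above background tested and 3418 with array weights, where WT replicate 3 was weighted 7.41 and the other arrays 0.524 to 1.19. Of the 39 genes, 2 were called higher after cyclic loess, beside 4.31% of all genes, and 4 with array weights, beside 8.04%. Called lower were 5 after cyclic loess, beside 667 of all genes, and 10 with array weights, beside 9.1%. With only genes above background tested, 10 were called lower, beside 9.37% of those genes. The split of all calls, 666 higher and 791 lower as deposited, was 862 to 639 once quantile normalization was repeated over all probe sets and 859 to 667 under cyclic loess over them. On the gene table alone, an alternative added after seeing the data, it was 818 to 734 and 830 to 703, the regulators' median was 0.06 in both, and Cth was called lower (adjusted p = 0.0341 and 0.0414) where Slc1a5 was not called (adjusted p = 0.0556 and 0.0572). Replicate numbers gave no positive correlation: deviations from the group means of same-numbered cultures correlated at -0.299, -0.262 and -0.0151 across genes. Differently numbered pairs ranged from -0.116 (KO replicate 3 with WT replicate 2) to 0.333 (KO replicate 1 with WT replicate 2). With 3 arrays per genotype these correlations depend on each other, so they do not settle whether replicate numbers pair the samples. Whether cultures shared a batch under another numbering was not tested. With the replicate number as a block, 52 genes were called, and of the 39 genes 0 higher and 0 lower. The median of the regulators was 0.07 after quantile normalization again and 0.06 after cyclic loess, and 0.02 to 0.06 without 1 array. That of the synthesis enzymes was -0.13 after cyclic loess and -0.18 to -0.15 without 1 array, and that of the transporters -0.04 to -0.01. The cause of these shifts was not tested.

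No called gene changed sign. Genes near 0 did: Nupr1 differed by 0.04 after quantile normalization again, 0.03 after cyclic loess and 0.0048 with array weights, Slc1a3 by -0.0015 after cyclic loess, and Slc3a2 by 0.02 after it. Slc7a1 and Slc7a2 each differed by 0.02 after either renormalization over all probe sets. On the gene table alone, quantile normalization and cyclic loess gave 0.03 and 0.04 for Nupr1, -0.01 in both for Slc1a3, 0.01 in both for Slc7a1 and 0.01 and 0.02 for Slc7a2, and cyclic loess gave 0.03 for Slc3a2. Slc38a4 differed by 0.03 with array weights. Without 1 array the range was -0.02 to 0.01 for Atf5, -0.02 to 0.0037 for Nupr1, -0.02 to 0.06 for Slc1a3, -0.04 to 0.02 for Slc7a1, -0.04 to 0.01 for Slc7a2, -0.02 to 0.09 for Slc38a1, -0.03 to 0.01 for Slc38a4 and -0.01 to 0.07 for Slc43a1.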
